A study of Mus musculus with 9 samples.

Results

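Type I and type III interferons are antiviral cytokines. Type I interferon acts on most cells, and type III interferon acts in the gut mainly on the epithelium. Both bind receptors that activate the kinases JAK1 and TYK2, which phosphorylate STAT2. With IRF9 it forms part of a complex that binds interferon-stimulated response elements in promoters and switches on genes that sense viral RNA, block translation, degrade RNA or trap virus particles. The 35 interferon-stimulated genes described here were picked by symbol from the 31685 genes of the jejunal expression table, by a rule that uses no expression value. All 35 were found, and all 35 were among the 13056 genes tested, which reached 1 FPKM or more in 3 or more mice.

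Jejunal RNA was taken on day 3 from 9 wild-type male C57BL/6J mice of 6 to 8 weeks. The 3 control mice were untreated, the 3 TAI mice received X-ray total abdominal irradiation (TAI) of 12 Gy at 75 cGy/min and then PBS, and the 3 TAI/IVIg mice received the same irradiation and 500 mg/kg of human intravenous immunoglobulin (IVIg), given within 1 h and every 3 days. The design asks what irradiation changed and what IVIg changed in irradiated mice. Values are FPKM, the fragments of a gene scaled to its length and to the size of its library, and are given for mice 1, 2 and 3 of each group in that order. The tissue is labelled as epithelial, and 5 pan-epithelial markers summed to between 3786 and 5082 FPKM, but it also carried smooth muscle Acta2 at 44.2 to 304 FPKM and B cell Cd79a at 0.80 to 142 FPKM. In such bulk RNA, fewer cells of a type and less RNA per cell cannot be told apart. The libraries held 16284386 to 18244535 reads. The median log2 fold change of all genes tested was -0.23 in TAI against control, -0.39 in TAI/IVIg against control and -0.13 in TAI/IVIg against TAI, and setting the library medians equal moved it to 0.05, 0.10 and 0.08.

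The response elements can be read in the genes' own promoters. RefSeq (GRCm38.p6) gave a window from 250 bases before to 50 after a start site for 25 of the 35 genes. The core of the interferon-stimulated response element, searched on both strands as GAAA, any 2 bases and GAAA again, stood in the windows of 13 of these 25 genes (52.0%), against 3.99% of 27025 genes with such a window. The gamma-activated sequence TTCNNNGAA stood in 7 of the 25 (28.0%), against 9.55%. Matches of the 2 motifs may overlap, and a match is a description of letters, not of a bound site. The windows below are those of Bst2, the gene with a core match that fell most after irradiation, of Irf1, which has no core match and rose, and of Isg15, shown for its overlapping matches and chosen after its values were seen. All 3 are printed 5′ to 3′ on the gene's strand, with matches of either motif in capitals.
Bst2, chr8:71537423-71537722, minus strand: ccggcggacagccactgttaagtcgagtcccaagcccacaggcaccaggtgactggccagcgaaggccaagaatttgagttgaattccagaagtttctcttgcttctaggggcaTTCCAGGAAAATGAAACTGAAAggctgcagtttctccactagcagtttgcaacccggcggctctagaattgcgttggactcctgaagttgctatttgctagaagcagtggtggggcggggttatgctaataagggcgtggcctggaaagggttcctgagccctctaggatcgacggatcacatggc
Irf1, chr11:53769764-53770063, plus strand: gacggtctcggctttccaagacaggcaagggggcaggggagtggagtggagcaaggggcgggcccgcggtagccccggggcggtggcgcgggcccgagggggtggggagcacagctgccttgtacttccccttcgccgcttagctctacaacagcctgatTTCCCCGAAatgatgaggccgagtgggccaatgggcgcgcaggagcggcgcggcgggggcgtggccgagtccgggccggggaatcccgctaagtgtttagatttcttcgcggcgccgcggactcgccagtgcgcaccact
Isg15, chr4:156200769-156201068, minus strand: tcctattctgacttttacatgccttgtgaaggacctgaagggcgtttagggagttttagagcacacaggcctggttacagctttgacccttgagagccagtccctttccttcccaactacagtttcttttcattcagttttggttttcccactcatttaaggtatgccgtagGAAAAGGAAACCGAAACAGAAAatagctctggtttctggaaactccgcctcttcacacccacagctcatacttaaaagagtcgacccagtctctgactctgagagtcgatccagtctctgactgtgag

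In Bst2 the core matches started at -130 and -124 from the start site, and the gamma-activated match at -136 overlapped the first of them. Irf1 held a gamma-activated match at -90 in the window printed. Its other window, chr11:53770223-53770522, held no match of either motif. In Isg15, 3 core matches ran together from -78, -72 and -66.

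After irradiation the 35 genes did not move one way. Of the 35, 1 rose and 2 fell at a limma adjusted p under 0.05 in TAI against control, where 8.81% of all genes tested rose and 26.1% fell. The gene that rose was Irf1, a transcription factor that both type I interferon and interferon gamma induce. The genes that fell were Bst2 (tetherin), which holds budding virus on the cell surface, and Ifi44, a cytoplasmic protein. The other genes split, with 15 of the 35 log2 fold changes above 0 and 20 below 0 (66.4% of all genes tested were below 0), and a median of -0.35. With library medians set equal the split was 17 above and 18 below, since Zbp1 and Rtp4 changed sign, and the median was -0.07. The mice of the 2 groups did not overlap for 7 genes that were higher in every TAI mouse and 9 that were lower, while 15.1% of all genes tested were higher without overlap and 38.0% lower. At an unadjusted p under 0.05, 1 was higher and 3 were lower, against 11.9% and 34.3% of all genes tested. The fit shares 1 estimate of the spread among all 9 mice, and in a fit of the 6 control and TAI mice alone 4 of the 35 rose (Irf1, Irf9, Ifit1 and Parp14) and 6 fell (Bst2, Ifi44, Ifi27l2a, Irf7, Oas1a and Trim30a), with 1290 and 3482 of all genes.

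**Figure D1:**
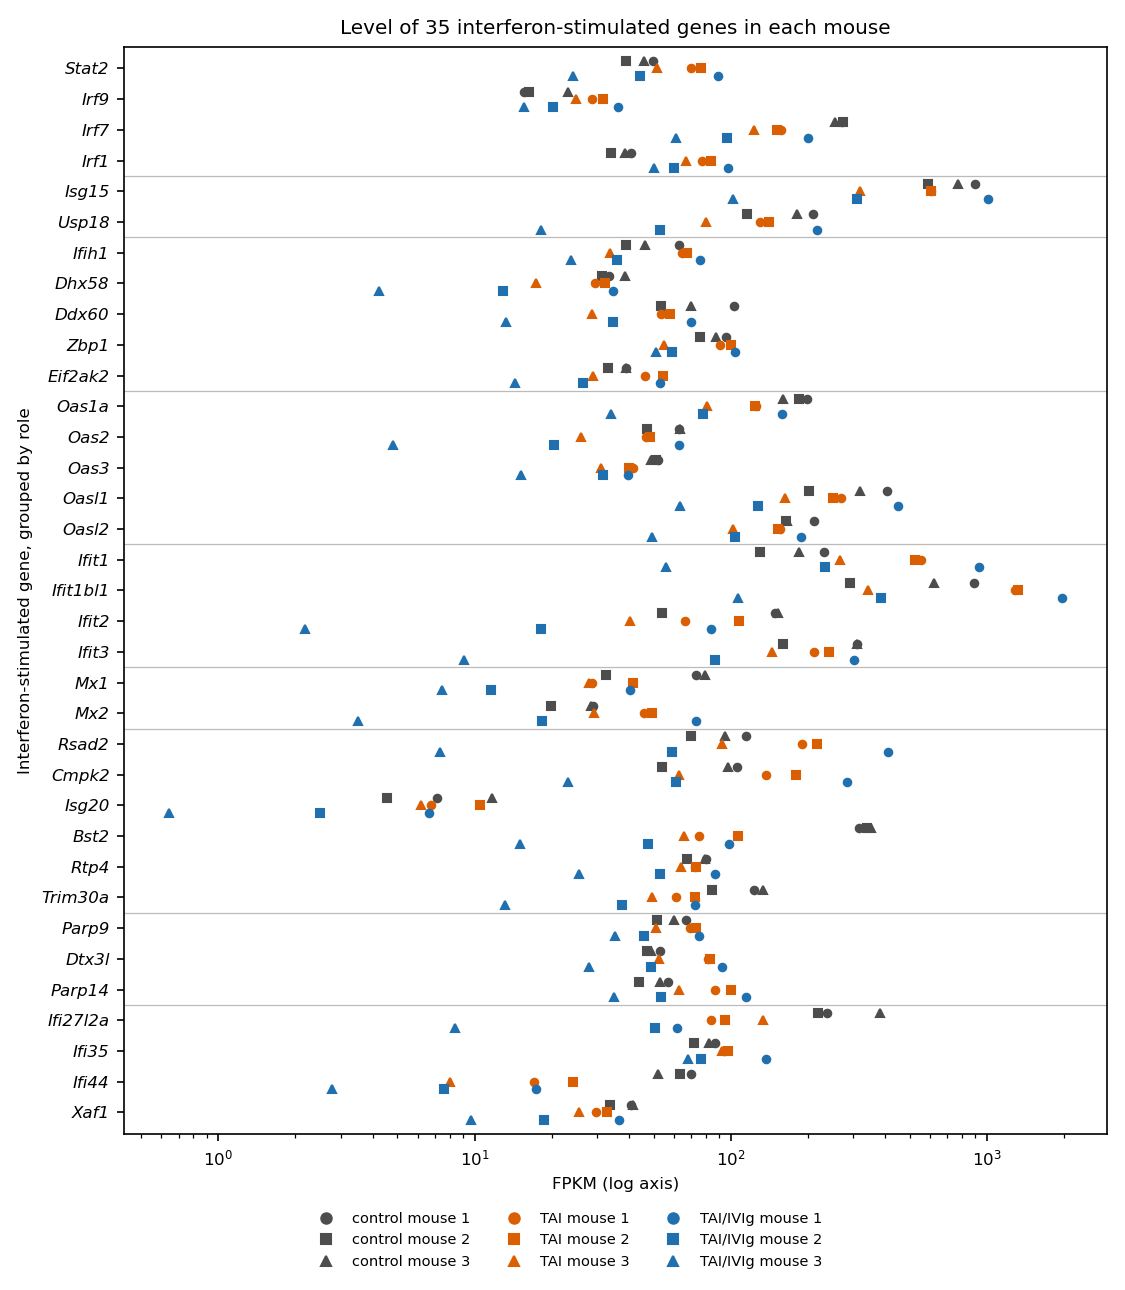
FPKM of each of the 35 interferon-stimulated genes (rows, grouped by role) in each of the 9 mice on a log axis, coloured by group (dark grey control, orange TAI, blue TAI/IVIg) with a circle for mouse 1, a square for mouse 2 and a triangle for mouse 3. Among the blue points the circle lies farthest right and the triangle farthest left in all 35 rows, and the median ratio of highest to lowest mouse is 5.40 for the blue points, 1.34 for the grey and 1.65 for the orange.

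The 4 transcription factors were split between these directions. Irf1 (chr11:53770014-53778374 in GRCm38) read 40.6, 34.1 and 38.7 FPKM in controls, 76.9, 84.1 and 67.1 after TAI and 97.5, 59.9 and 50.3 after TAI/IVIg. Every irradiated mouse, treated or not, was above every control mouse. The log2 fold change was 0.99 (SE 0.23, limma adjusted p = 0.0113) in TAI against control and 0.80 (SE 0.23, limma adjusted p = 0.0190) in TAI/IVIg against control. Irf7, which amplifies type I interferon production, read 273, 273 and 254 FPKM in controls, 156, 151 and 123 after TAI and 199.5, 96.5 and 61.2 after TAI/IVIg. All irradiated mice were below all control mice, and the log2 fold change in TAI against control was -0.90 (SE 0.35, limma adjusted p = 0.0769).

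Irf9 and Stat2 encode parts of the complex that binds the response element. Irf9 read 15.5, 16.3 and 23.2 FPKM in controls, 28.9, 31.6 and 24.9 after TAI and 36.4, 20.3 and 15.6 after TAI/IVIg. Its TAI mice stood above all control mice, with a log2 fold change of 0.62 (SE 0.28, limma adjusted p = 0.118), which passed the threshold with library medians set equal (0.91, adjusted p = 0.0371). Stat2 read 49.6, 39.0 and 46.0 FPKM in controls, 69.6, 76.2 and 51.7 after TAI and 89.2, 44.1 and 24.3 after TAI/IVIg. Here too the TAI mice lay above the control mice, with a log2 fold change of 0.53 (SE 0.39, limma adjusted p = 0.311).

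Bst2 (chr8:71534255-71537456, minus strand) had the largest fall of the 35 genes in TAI against control. It read 318, 340.0 and 354 FPKM in controls, 75.4, 107 and 65.7 after TAI and 98.2, 47.6 and 15.0 after TAI/IVIg, so that the highest irradiated mouse was far below the lowest control mouse. The mean of the TAI mice was 0.245 times that of the control mice, and the log2 fold change was -2.04 (SE 0.54, limma adjusted p = 0.0192). Ifi44 (chr3:151730922-151749960, minus strand) read 69.7, 63.1 and 52.1 FPKM in controls, 17.1, 24.3 and 7.99 after TAI and 17.4, 7.60 and 2.78 after TAI/IVIg. Its irradiated and control mice did not overlap either, with a log2 fold change of -1.96 (SE 0.54, limma adjusted p = 0.0235). Of 20 alternative settings of the fit, Irf1 passed in 20, Bst2 in 15 and Ifi44 in 13. The fall of Bst2 missed the threshold without control mouse 2 or 3, without TAI mouse 1 or 3, and with no filter, with an adjusted p of at most 0.0648. That of Ifi44 missed it without any 1 of the control mice, without TAI mouse 1 or 3, with no filter and with voom on median-ratio library sizes, with an adjusted p of at most 0.0818.

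Other antiviral effectors showed the same division. Ifi27l2a, a small membrane protein, read 237, 219 and 382 FPKM in controls, 84.0, 94.6 and 134 after TAI and 61.5, 50.7 and 8.37 after TAI/IVIg. Trim30a, which restrains inflammatory signalling, read 123, 84.4 and 133 FPKM in controls, 61.3, 72.6 and 49.4 after TAI and 72.5, 37.6 and 13.2 after TAI/IVIg. Both lay below every control mouse in every irradiated mouse, and in TAI against control their log2 fold changes were -1.40 (adjusted p = 0.113 by limma) and -0.88 (adjusted p = 0.203 by limma). Parp14, which transfers ADP-ribose onto proteins and acts near the PARP9 and DTX3L pair, read 56.9, 43.6 and 53.0 FPKM in controls, 86.4, 100.1 and 62.7 after TAI and 114, 53.2 and 35.2 after TAI/IVIg. Its TAI mice stood above the control mice, with a log2 fold change of 0.67 (adjusted p = 0.193 by limma), and all 3 genes of that group had a log2 fold change above 0, under library medians set equal as well. Isg20, an exonuclease that degrades RNA, was the least abundant of the 35 and read 7.12, 4.56 and 11.7 FPKM in controls, 6.78, 10.5 and 6.19 after TAI and 6.67, 2.50 and 0.641 after TAI/IVIg. The control and TAI ranges of Isg20 overlapped, and its log2 fold change was 0.05, which turned to -0.15 without TAI mouse 2 and to -0.23 without control mouse 2.

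The IFIT proteins bind viral RNA that lacks the host cap. Ifit1 read 232, 130.0 and 185 FPKM in controls, 552, 524 and 266 after TAI and 928, 232 and 56.0 after TAI/IVIg. Ifit1bl1, a mouse relative of Ifit1 and the most abundant of the 35 by mean FPKM, read 893, 291 and 619 FPKM in controls, 1283, 1323 and 344 after TAI and 1967, 387 and 107 after TAI/IVIg. Ifit1 did not overlap between control and TAI mice, with a log2 fold change of 1.26 (SE 0.83, limma adjusted p = 0.264), while Ifit1bl1 overlapped at 0.62 (SE 0.98). Ifit2 read 148, 54.1 and 153 FPKM in controls, 66.3, 108 and 40.5 after TAI and 83.7, 18.1 and 2.19 after TAI/IVIg. Ifit3 read 309, 160.4 and 310.5 FPKM in controls, 211, 241 and 145 after TAI and 303, 86.9 and 9.12 after TAI/IVIg. These neighbours on chromosome 19 therefore differed in sign, with log2 fold changes of -0.69 for Ifit2 and -0.35 for Ifit3 that did not pass the test. How reads shared between such close relatives were counted is not stated, so the split among the IFIT, OAS, TRIM30 and IFI27-like genes is uncertain.

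Isg15 is a ubiquitin-like modifier that is joined to proteins, and Usp18 removes it and also restrains the interferon receptor. Isg15 read 900.4, 590.1 and 768 FPKM in controls, 606, 607 and 319 after TAI and 1012, 311 and 102 after TAI/IVIg. The control and TAI mice overlapped, with a log2 fold change of -0.60 (SE 0.69, limma adjusted p = 0.522). The length behind the FPKM of Isg15 did not match the annotation used for the other 34 genes, so its level relative to other genes is less certain than its level between mice.

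The oligoadenylate synthetases make the messenger that activates the RNA-degrading enzyme RNase L, and the related OASL proteins act on RNA sensing and translation. All 5 family members had a log2 fold change below 0 in TAI against control, from -0.73 to -0.41, and kept that sign with library medians set equal, but 0 of 5 passed the test. Oas1a read 198, 184 and 159.8 FPKM in controls, 125, 125 and 80.6 after TAI and 159, 78.0 and 34.2 after TAI/IVIg. Oasl1 read 408, 201 and 319 FPKM in controls, 269.7, 250.5 and 163 after TAI and 448, 128 and 63.5 after TAI/IVIg. Oas1a was lower in every TAI mouse than in every control mouse, and Oasl1 overlapped. Among the nucleic acid sensors and kinases (Ifih1, Dhx58, Ddx60, Zbp1 and Eif2ak2), log2 fold changes ran from -0.69 to 0.18 and 0 of 5 passed. The Mx GTPases, which block viral nucleocapsids but are defective in common laboratory strains, gave -0.81 for Mx1 and 0.65 for Mx2, and neither passed.

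**Figure D2:**
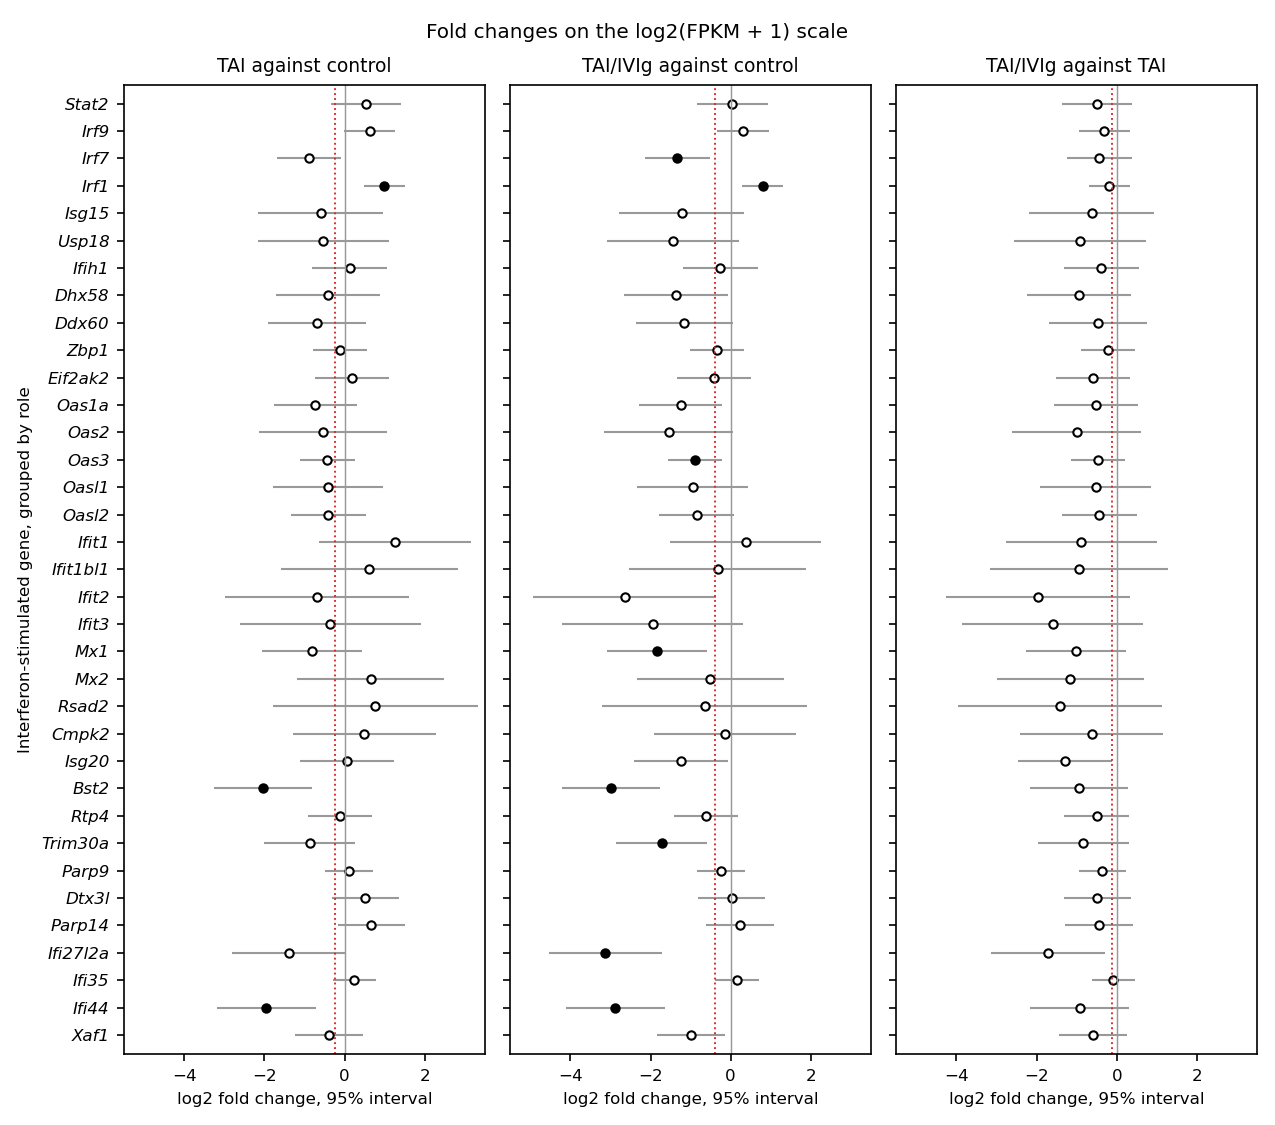
Log2 fold change on the log2(FPKM + 1) scale with its 95% interval for each of the 35 genes in the 3 comparisons, filled where the limma adjusted p was under 0.05. The red dotted line is the median of all genes tested. In TAI against control 3 points are filled (Irf1, Bst2 and Ifi44), in TAI/IVIg against control 8, and in TAI/IVIg against TAI 0, where every point lies left of 0.

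The TAI/IVIg mice differed among themselves far more than the other mice did. In all 35 genes, TAI/IVIg mouse 1 was the highest of its group and mouse 3 the lowest, an order that 18.2% of all genes tested shared. The highest mouse was a median of 5.40 times the lowest over the 35 genes, against 1.34 times in the control group and 1.65 times in the TAI group. The ratio ran from 1.94 for Irf1 to 56.2 for Rsad2 (viperin, which makes a chain-terminating nucleotide) and was over 5 in 19 genes and over 10 in 10. Over all genes tested, the median ratio of mouse 1 to mouse 3 was 0.997, and 2.09% of genes had a ratio above the median of the 35.

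Rsad2 read 115, 69.8 and 94.7 FPKM in controls, 190.1, 217 and 92.7 after TAI and 411, 59.2 and 7.32 after TAI/IVIg. The ratio of mouse 1 to mouse 3 was 38.3 for Ifit2, 33.2 for Ifit3, 20.8 for Mx2, 18.4 for Ifit1bl1, 16.6 for Ifit1, 13.1 for Oas2, 12.2 for Cmpk2, 11.9 for Usp18 and 10.4 for Isg20. At the other end it was 2.03 for Ifi35, 2.03 for Zbp1, 2.13 for Parp9 and 2.33 for Irf9. The 4 IFIT genes thus spanned 16.6 to 38.3 times and the 4 transcription factors 1.94 to 3.67 times. Rsad2, Cmpk2 and Mx2 were named after their values were seen.

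**Figure D3:**
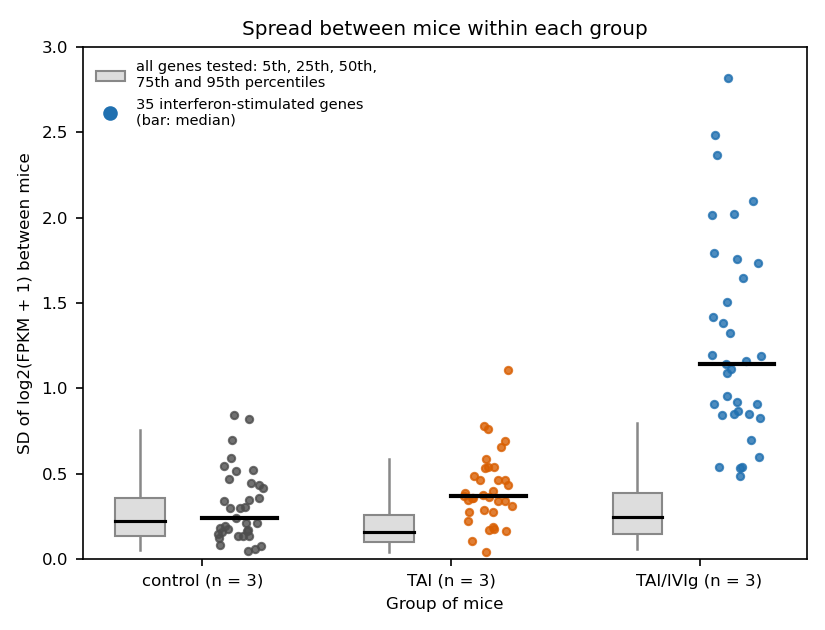
SD of log2(FPKM + 1) between the 3 mice of each group for the 35 genes (points, with a bar at their median) beside all 13056 genes tested (box from the 25th to the 75th percentile, line at the median, whisker from the 5th to the 95th). The medians of the 35 genes are 0.24 for control, 0.37 for TAI and 1.14 for TAI/IVIg mice, where most points lie above the whisker of all genes.

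The same held on the log scale. The SD of log2(FPKM + 1) between mice had a median over the 35 genes of 0.24 in the control, 0.37 in the TAI and 1.14 in the TAI/IVIg mice, beside 0.22, 0.16 and 0.24 over all genes tested. It was largest in the TAI/IVIg group for 35 of the 35 genes, and 1.82% of all genes tested had a TAI/IVIg SD above 1.14. Setting the library medians equal left the median SD at 1.12. Smaller spreads existed in the other groups as well. Control mouse 2 was the lowest control mouse in 29 of the 35 genes (26.0% of all genes tested), and TAI mouse 3 the lowest TAI mouse in 34 (36.2% of all genes tested).

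Read by mouse, the 35 genes stood at a median of 111%, 85.2% and 103% of the control mean in the control mice, 87.1%, 93.6% and 61.3% in the TAI mice and 120%, 57.7% and 20.5% in the TAI/IVIg mice. TAI/IVIg mouse 1 was above every control mouse in 19 genes (19.4% of all genes tested) and below every control mouse in 7 (63.0% of all genes tested). TAI/IVIg mouse 3 was below every control mouse in 33 (66.4% of all genes tested), and Irf1 was the gene in which it was above every control mouse. Against the irradiated mice without IVIg, mouse 1 was above every TAI mouse in 26 of the 35, mouse 2 below every TAI mouse in 29 and mouse 3 below every TAI mouse in 35. Over all genes tested, these shares were 11.5% for mouse 1, 29.2% for mouse 2 and 53.8% for mouse 3.

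**Figure D4:**
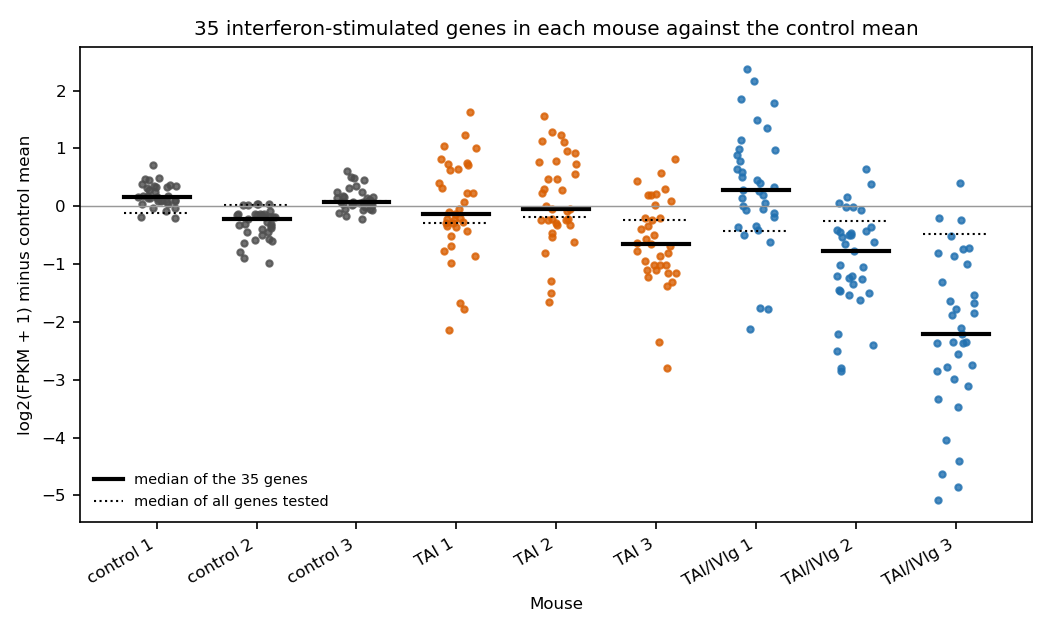
Difference of log2(FPKM + 1) from the control mean for each of the 35 genes (points) in each mouse, with the median of the 35 genes (thick bar) and of all genes tested (dotted bar). The thick bar lies at 0.28, -0.78 and -2.21 in TAI/IVIg mice 1, 2 and 3, while the dotted bar lies between -0.49 and 0.09 in all mice.

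The 35 genes moved together between mice of a group. The correlation of a gene's deviations from its group means with the mean deviation of the other 34 had a median of 0.976 over the 9 mice and ran from 0.755 for Ifi27l2a to 0.998, beside a median of -0.013 for all genes tested. The 9 points come from the same libraries for every gene, and the spread was largest in TAI/IVIg. In the TAI group, Ifi27l2a was the gene of the 35 that was highest in mouse 3.

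Against control, the TAI/IVIg mice had 1 gene that rose and 7 that fell among the 35, while 9.06% of all genes tested rose and 37.4% fell. Without overlap between the groups, 1 was higher and 7 were lower, against 11.5% and 44.3% of all genes tested, and at an unadjusted p under 0.05, 1 was higher and 12 were lower, against 10.6% and 44.0%. In all, 28 of the 35 log2 fold changes were below 0, against 75.5% of all genes tested. Irf1 rose, as given above. Ifi27l2a fell by 3.12 on the log2 scale (SE 0.63, limma adjusted p = 0.00441), Bst2 by 2.99 (SE 0.54, limma adjusted p = 0.00282) and Ifi44 by 2.88 (SE 0.54, limma adjusted p = 0.00334). Mx1 read 72.9, 32.5 and 79.2 FPKM in controls, 28.7, 41.5 and 27.9 after TAI and 40.3, 11.6 and 7.47 after TAI/IVIg, and fell by 1.83 (SE 0.55, limma adjusted p = 0.0247). Trim30a fell by 1.72 (adjusted p = 0.0217 by limma), Irf7 by 1.33 (adjusted p = 0.0148 by limma) and Oas3 by 0.89 (adjusted p = 0.0369 by limma). Oas3 read 51.9, 51.2 and 48.8 FPKM in controls, 41.6, 40.1 and 31.0 after TAI and 39.8, 31.7 and 15.1 after TAI/IVIg, with no overlap between control and irradiated mice. The median log2 fold change of the 35 was -0.89, or -0.40 with library medians set equal. With those medians equal, the falls of Bst2, Ifi44 and Ifi27l2a passed and those of Irf7, Mx1, Trim30a and Oas3 did not. Without TAI/IVIg mouse 1, 20 of the 35 fell, beside 4135 of all 13056 genes tested. Without TAI/IVIg mouse 3, 5 of the 35 fell, beside 3585 of all genes tested.

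Between the TAI/IVIg and TAI mice 0 of the 35 genes passed the limma adjusted threshold, and 0 of all 13056 genes tested did. All 35 log2 fold changes were below 0, as were 69.6% of those of all genes tested, and 2 of the 35 (Ifi27l2a and Isg20) had an unadjusted p under 0.05, against 1.64% of all genes on the higher side and 11.2% on the lower. Without overlap, 0 of the 35 were higher and 1 lower, against 3.09% and 16.1% of all genes tested. Of all genes, voom on the recovered reads called 0, the replicate block called 3 lower and the fit with no filter called 4 lower, none of them among the 35. For Ifi27l2a, the gene in which all TAI/IVIg mice lay below all TAI mice, the log2 fold change was -1.73 (SE 0.63, 95% interval -3.15 to -0.30, limma adjusted p = 0.360). Isg20 gave -1.29 (95% interval -2.46 to -0.12, limma adjusted p = 0.366), Ifit2 -1.96 (95% interval -4.25 to 0.33) and Mx1 -1.02 (95% interval -2.27 to 0.24). For Isg15 the difference was -0.62 with a 95% interval from -2.18 to 0.94, and for Irf1 -0.18 from -0.70 to 0.33, so both intervals held differences of either sign. The median over the 35 genes was -0.60. Leaving out mouse 3 of the TAI/IVIg group gave -0.06, and leaving out its mouse 1 gave -1.29. It was -0.40 with library medians set equal, where Irf1 and Ifi35 lay above 0.

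Upstream, the interferon genes themselves were barely read. Ifna1 and Ifna5 were not listed, and Ifnb1, Ifna2, Ifna4, Ifna13, Ifne, Ifnk and Ifng each stayed at or below 0.41 FPKM, with at most 5 reads in any mouse. The type III interferons were the ones read most. Ifnl2 read 3.52, 0.32 and 1.73 FPKM in control (43, 4 and 21 reads) and 0 to 0.17 in the irradiated mice (at most 2 reads). Ifnl3 read 1.88, 0.49 and 1.39 FPKM in control (19, 5 and 14 reads) and 0 to 0.38 in the irradiated mice (at most 4 reads). Every irradiated mouse was below every control mouse for both, but these near-identical copies lay below the filter and were not tested. The control mouse with the fewest reads of both, mouse 2, was also the lowest control mouse for most of the 35 genes, at n = 3 without a test.

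In TAI against control 0 of the 6 receptor genes passed (8.81% of all genes tested rose and 26.1% fell), and in TAI/IVIg against control 3 rose and 0 fell (9.06% and 37.4% of all genes tested). With library medians set equal, 1 and 5 of the 6 rose in these comparisons and 0 fell. Of all 13056 genes tested, 2159 and 2880 then rose. Ifnlr1, the specific chain of the type III interferon receptor, read 9.34, 7.52 and 7.15 FPKM in controls, 11.1, 11.1 and 9.12 after TAI and 12.7, 9.96 and 12.2 after TAI/IVIg, and it rose by 0.49 on the log2 scale in TAI/IVIg against control (adjusted p = 0.0260 by limma). Il10rb, its shared partner chain, gave 0.43 (adjusted p = 0.0341 by limma), and Ifngr2, a chain of the interferon gamma receptor, 0.69 (adjusted p = 0.00846 by limma). The TAI/IVIg mice were close to each other in all 3, with the highest mouse at 1.28, 1.40 and 1.37 times the lowest. Ifnar1, a chain of the type I receptor, read 8.38, 8.37 and 9.63 FPKM in controls, 7.23, 7.25 and 7.47 after TAI and 5.95, 8.07 and 6.40 after TAI/IVIg, so that every irradiated mouse was below every control mouse. Its log2 fold change was -0.23 in TAI against control (adjusted p = 0.202 by limma) and -0.33 in TAI/IVIg against control (adjusted p = 0.0676 by limma), and both turned positive with library medians set equal (0.05 and 0.16).

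Of the 10 signal transducers and negative regulators, 2 rose and 1 fell in TAI against control, where 8.81% of all genes tested rose and 26.1% fell, and 2 rose and 2 fell in TAI/IVIg against control, where 9.06% rose and 37.4% fell. With library medians set equal, 3 and 4 rose in these comparisons and 0 fell in either. Of all 13056 genes tested, 2159 and 2880 then rose and 1823 and 1894 fell. Socs3, which blocks cytokine receptors that signal through STAT3, read 12.9, 12.9 and 13.0 FPKM in controls, 121, 124 and 76.3 after TAI and 89.5, 65.9 and 89.1 after TAI/IVIg. It rose by 2.92 on the log2 scale in TAI against control (SE 0.20, limma adjusted p = 0.00015). Stat3 rose by 0.85 (adjusted p = 0.00350 by limma) and Ptpn2, a phosphatase that acts on JAK and STAT proteins, fell by 0.57 (adjusted p = 0.0193 by limma), the latter not with library medians set equal. Socs1, which interferons themselves induce, had the order of the 35 genes in the TAI/IVIg mice, at 12.3, 2.73 and 1.19 FPKM, and did not pass in any of the 3 comparisons.

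Among the 15 tested sensors, adaptors and kinases that lead to interferon production, 0 rose and 2 fell in TAI against control (26.1% of all genes tested fell), and 0 rose and 6 fell in TAI/IVIg against control (37.4% of all genes tested fell). With library medians set equal, 1 rose and 0 fell in the former, and 2 rose and 1 fell in the latter. Of all 13056 genes tested, 2159 and 2880 then rose and 1823 and 1894 fell. Ifi204, a DNA sensor that interferon itself induces, read 67.9, 43.5 and 61.6 FPKM in controls, 12.7, 19.0 and 8.25 after TAI and 14.0, 3.44 and 0.954 after TAI/IVIg. It fell by 2.08 on the log2 scale in TAI against control (limma adjusted p = 0.0323, or 0.0607 with library medians set equal). Mavs, the mitochondrial adaptor of the RNA sensors, read 22.6, 24.7 and 19.2 FPKM in controls, 10.2, 10.1 and 12.7 after TAI and 7.81, 20.7 and 19.5 after TAI/IVIg, and fell by 0.94 (adjusted p = 0.0434 by limma), which was also lost with library medians set equal. Tbk1, a kinase that activates the factors behind interferon production, had a log2 fold change of 0.53 in TAI against control. Its limma adjusted p was 0.0733, or 0.0290 with the replicate number of all 9 mice as a block. Unlike the 35 genes, Mavs was lowest in TAI/IVIg mouse 1.

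Genes that answer mainly to interferon gamma showed the same order of mice. TAI/IVIg mouse 1 was the highest of its group in 16 of these 17 genes and mouse 3 the lowest in 16, and TAI mouse 3 was the lowest TAI mouse in 16, while these mice held those places in 25.9%, 42.3% and 36.2% of all genes tested. Cxcl10, a chemokine for T cells, read 30.6, 13.8 and 32.0 FPKM in controls, 118, 171 and 50.6 after TAI and 174, 19.9 and 1.30 after TAI/IVIg. The TAI mice were all above the control mice, with a log2 fold change of 2.03 (SE 1.28, limma adjusted p = 0.244), and the TAI/IVIg mice ran from above the highest TAI mouse to below the lowest control mouse. Of the 17, 0 rose and 4 fell in TAI/IVIg against control (37.4% of all genes tested fell), namely Irgm1, Iigp1, Psmb8 and Psmb9. With library medians set equal 0 of the 17 fell, beside 1894 of all 13056 genes tested. In TAI against control, without that step, 0 rose and 2 fell (26.1% of all genes tested fell). Both were subunits of the immunoproteasome, Psmb8 (-0.87, limma adjusted p = 0.0162) and Psmb9 (-1.10, limma adjusted p = 0.0115), and the fall of Psmb8 did not pass with library medians set equal (adjusted p = 0.0665). Socs1 is counted both here and among the regulators. Cxcl10 was named after its values were seen.

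Markers of other cells also differed between the groups and between the same mice. Of 6 enterocyte markers, 5 rose in both comparisons with control, and the sums of all 6 ran from 10831 to 17495 FPKM in control, 25344 to 44542 in TAI and 38594 to 42229 in TAI/IVIg. Most of each sum was Fabp2 and Apoa1. The other marker, Sis, went down, at 375, 510 and 257 FPKM in controls, 189, 196 and 129 after TAI and 103, 335 and 194 after TAI/IVIg. Its log2 fold changes against control were -1.12 after TAI and -0.95 after TAI/IVIg, and neither passed the threshold. Of 7 macrophage and monocyte markers, 3 fell (Cd68, Ly6c2 and Ccr2) in both comparisons. These counts were the same with library medians set equal. The 5 dendritic markers summed to 8.33 to 8.65 FPKM in control, 3.39 to 5.30 in TAI and 1.86 to 5.06 in TAI/IVIg. Itgax, the dendritic marker that passed the filter, fell by 0.76 on the log2 scale in TAI against control (adjusted p = 0.0356 by limma) and by 1.05 in TAI/IVIg against control (adjusted p = 0.00747 by limma), and neither fall passed with library medians set equal (adjusted p = 0.111 and 0.0641). Of 5 stromal markers, 3 fell in TAI/IVIg against control and 0 in TAI against control. In the TAI/IVIg group 5 stromal markers summed to 252, 142 and 61.1 FPKM and 7 macrophage and monocyte markers to 149, 114 and 101, the order of the 35 genes, while the stromal sums ran from 253 to 325 in control and 279 to 358 in TAI. Endothelial markers summed to 10.7, 12.7 and 6.55, pan-leukocyte markers to 8.81, 35.7 and 7.53, T and NK cell markers to 41.2, 34.7 and 63.0 and pan-epithelial markers to 4448, 3786 and 4066, none of them in that order. In the TAI group the stromal sum was 293, 279 and 358, highest in mouse 3, the mouse with the lowest values of 34 of the 35 genes. Smooth muscle Acta2 made up most of that sum, at 239, 208 and 304 FPKM, and Dcn was also highest in mouse 3. The other stromal markers, Col1a1, Col3a1 and Pdgfra, were instead lowest in TAI mouse 3, as were those 34 genes. Col1a1 read 10.6, 12.3 and 7.53 FPKM and Col3a1 17.3, 24.4 and 14.1 FPKM in the TAI mice. Siglech, which marks plasmacytoid dendritic cells, stayed at or below 0.27 FPKM in all mice, and Flt3 and Xcr1 were at 0 in some mice. B cell Cd79a was highest in control mouse 3, TAI mouse 3 and TAI/IVIg mouse 2 (142, 29.9 and 31.4 FPKM) and at most 18.5 FPKM in the others. The part of these cells in the values of the 35 genes was not tested.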

How the data were processed

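FPKM values are as deposited, with 1 column for each mouse and no pooling. Per the labels, reads were handled with FastQC, Trimmomatic, STAR, featureCounts and DESeq2 on mm10 (GRCm38), without versions, and the strand setting was not given in the sources used here. Low FPKM values were whole multiples of a read in 100% of values (tolerance 0.001 reads), which gave the depths (16284386 to 18244535 reads). The gene lengths behind them matched GENCODE release 21 of the mouse (GRCm38) for 98.4% of 31146 genes with a symbol, and coordinates are from that release. The 13056 genes that reached 1 FPKM or more in 3 or more mice were fitted as log2(FPKM + 1) with limma 3.58.1 in R 4.3.3, a term per group, all 9 mice and a trended empirical Bayes step. Fold changes are on that scale, which understates low genes. Adjusted p-values are Benjamini-Hochberg values over the 13056 genes of a comparison. With 3 mice a group an exact permutation test could not go below p = 0.1, so none was used. P-values measure the spread between these mice, and nothing states that libraries were prepared separately. The genes given in full were the 10 with the largest change past the threshold in TAI against control (filled up by smallest unadjusted p), the 5 smallest unadjusted p in TAI/IVIg against TAI, the 5 highest by mean FPKM and the 4 transcription factors. The interferon-stimulated genes, lists and rules were chosen with earlier results of these data known. Deviations of control and TAI mice with the same number correlated at 0.271, 0.241 and 0.308. Those of TAI/IVIg mice with the same number in other groups correlated at -0.296 to 0.201. The highest correlation between groups, 0.408, was that of control mouse 3 with TAI/IVIg mouse 2. The labels do not say that mice with the same number were paired. Alternatives were voom on the recovered reads, each mouse left out, a block for the replicate number, a fit without trend, a fit of only 6 mice, quantile normalization, equal library medians, a filter on a mean of 5 FPKM, none at all, a pseudocount of 0.1 and, added after seeing the data, a variance per group. The values of some listed genes are not reported here.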

Additional observations from a re-analysis of the deposited data

How the results depend on the processing

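In TAI against control, the count of the 35 genes that rose was 1 and became 2 with voom on median-ratio library sizes, with quantiles made equal and with medians made equal, and 4 with the 6 mice compared (Irf1, Irf9, Ifit1 and Parp14). The count that fell was 2 and became 1 with voom on median-ratio library sizes, 0 with no filter and 6 with the 6 mice compared. Leaving out a mouse gave 1 to 3 that rose and 0 to 5 that fell, with 0 without TAI mouse 1 or 3 or control mouse 2 or 3. Of the 47 other interferon pathway genes tested, 2 rose and 5 fell, which became 5 and 1 with medians made equal. They were 8 and 3 with quantile normalization, 8 and 1 with voom on median-ratio library sizes and 6 risen with the 6 mice compared. Leaving out a mouse gave 2 to 4 and 1 to 6. Of all 13056 genes tested, 1150 rose and 3411 fell, which became 2159 and 1823 with medians made equal. They were 1994 and 2284 with quantile normalization, 1978 and 1913 with voom on median-ratio library sizes and 1290 risen with the 6 mice compared. In TAI/IVIg against control, 1 of the 35 rose and 7 fell, which became 2 and 3 with library medians set equal. With voom on median-ratio library sizes 3 fell, and 4 with no filter. Leaving out a mouse gave 0 to 1 that rose (0 without control mouse 2) and 4 to 20 that fell. The count that fell was 4 without control mouse 1 or 3 and 20 without TAI/IVIg mouse 1. Of all genes tested, 4913, 3584 and 4135 fell without these mice. The 47 pathway genes gave 5 risen and 12 fallen, then 11 and 1 with medians made equal. They gave 10 and 2 with quantile normalization, 10 and 2 with voom on median-ratio library sizes and 3 risen with the 6 mice compared. The count fallen was 7 with no filter and 7 with a variance per group. Leaving out a mouse gave 3 to 5 and 4 to 18. All 13056 genes tested gave 1183 risen and 4880 fallen, then 2880 and 1894 with medians made equal. They gave 2407 and 2253 with quantile normalization, 2419 and 2379 with voom on median-ratio library sizes and 986 risen with the 6 mice compared. With no filter 4650 of 31685 genes fell, and with a variance per group 4189 of 13056. In TAI/IVIg against TAI, 0 of the 35 passed under all 20 alternatives. Among the genes given in full, signs turned for Irf1 in TAI/IVIg against TAI with library medians set equal (0.019) and for Ifit1bl1 in TAI/IVIg against control with library medians set equal (0.17) and with voom on median-ratio library sizes (0.13). Over all 35 genes, 11 log2 fold changes in TAI/IVIg against TAI were above 0 without TAI/IVIg mouse 3. Leaving out a mouse turned signs of genes given in full too. In TAI/IVIg against TAI the log2 fold change then ran from -0.46 to 0.014 for Irf1, -1.05 to 0.042 for Oas1a, -1.89 to 0.13 for Ifit1, -2.03 to 0.063 for Ifit1bl1, -1.45 to 0.20 for Isg15 and -1.29 to 0.11 for Oasl1, each above 0 without TAI/IVIg mouse 3. In TAI/IVIg against control it ran from -0.018 to 0.57 for Irf9, -0.23 to 0.61 for Parp14, -0.63 to 1.38 for Ifit1, -1.41 to 0.68 for Ifit1bl1 and -0.44 to 0.48 for Stat2, and in TAI against control from -0.23 to 0.36 for Isg20. The replicate block gave 1 risen and 2 fallen of the 35 in TAI against control, 1 and 9 in TAI/IVIg against control and 0 in TAI/IVIg against TAI, and among the pathway genes Tbk1 passed in both comparisons with control, Gbp3 passed and Irf5 was lost in TAI/IVIg against control. It changed no other call among the pathway genes. Calls of the cell type markers under the block were not compared. Of all genes, voom on the recovered reads called 1167 risen and 3307 fallen in TAI against control, beside 1150 and 3411 with FPKM. Setting library medians equal gave 2159 and 1823. Where a setting changed a count, the cause was not tested, and with 3 mice a group the spread of the TAI/IVIg mice limits what could be called.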
